A study of Mus musculus with 4 samples.

Results

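Cholesterol synthesis in the liver is represented here by 9 enzyme genes, Hmgcs1, Idi1, Fdps, Fdft1, Sqle, Lss, Cyp51, Nsdhl and Dhcr7. They were chosen by name, and every probe set annotated with one of these symbols, current or older, was taken. The 9 genes are among 12384 named genes on the array and have 21 of its 22626 probe sets. Of these, 16 were above background on all 4 arrays and 5 on none, and each gene kept at least 1. An intensity above 14.1 was taken as above background, a level that 90 percent of the values stay under among 63 probe sets for 47 genes with no known expression in liver.

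The arrays hold liver RNA of male mice aged 12 to 20 weeks. The wild-type mice were of the 129S1/SvImJ strain, and the PPARα-null mice, which lack this nuclear receptor in all cells, of the 129S4/SvJae strain. Both received chow without an addition or chow with 0.1% (w/w) Wy14643, a synthetic PPARα agonist, for 5 days. RNA was pooled within each group, and 1 Affymetrix MOE430A array was hybridized per group, so that each genotype has a control array and a Wy14643 array. The design text gives 5 mice per group, and the study text gives a range. The substrains of the genotypes differ in the labels, so substrain and genotype cannot be told apart. For the array of wild-type mice given Wy14643, the title was followed where its free text repeats the control's. With 1 array per group there is no replicate error, no difference could be tested, and precision is limited by how few arrays there are. A 1.5-fold ratio in either direction was the threshold for calling a gene higher or lower. Each comparison is given beside the percentage of all measured genes that passed the same threshold.

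The median intensity lay between 14.2 and 14.6 on the 4 arrays, and 50.2% to 50.9% of the probe sets were above background. All 8 measured hepatocyte markers were above background on every array, with a summed intensity between 71901 and 81682. In wild-type mice 3 of them were lower by 1.5-fold on Wy14643, namely Tat (log2 ratio -1.55), Cps1 (-1.09) and Fgb (-0.62), beside 16.6% of all genes. For Ppara itself, wild-type over PPARα-null was 2.60-fold on control chow and 2.92-fold on Wy14643, and its intensity in PPARα-null mice, 326 and 428, stayed well above background. Where its probe set lies relative to the disrupted part of the gene is not given in the sources used here.

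Cholesterol is built from acetyl-CoA. The mevalonate pathway makes isoprenoid units, which are joined to farnesyl diphosphate and then to squalene. Squalene is oxidized and closed to lanosterol, the first sterol, and a series of demethylations, reductions and isomerizations turns lanosterol into cholesterol. In liver most of these enzymes are transcribed under the control of the sterol regulatory element binding proteins (SREBPs), which act with the factors NF-Y and Sp1 at promoters and are released from the endoplasmic reticulum when its cholesterol content is low. PPARα acts with the receptor RXR at direct repeats of the half-site AGGTCA.

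Promoter sequences are shown for the members whose responses are described below, since SREBP motifs near the start site are the known route of joint control of this pathway. RefSeq windows (build GRCm38.p6) of 250 bases before to 50 after the start were at hand for 6 of the 9 members, in 8 windows, and none was used for Fdps, Fdft1 and Sqle. Both strands were searched for the SREBP motif TCACNCCAC, the NF-Y motif CCAAT, the Sp1 motif GGGCGG and the PPAR element, which is a pair of copies of AGGTCA with 1 base between. Matches did not overlap each other in the members' windows. Capitals mark the matches, which read GTGGNGTGA, ATTGG and CCGCCC when on the other strand, and positions are counted from the first transcribed base as 0. The stretches below run from 10 bases before the first match and end no later than the base before the start.
Hmgcs1 promoter: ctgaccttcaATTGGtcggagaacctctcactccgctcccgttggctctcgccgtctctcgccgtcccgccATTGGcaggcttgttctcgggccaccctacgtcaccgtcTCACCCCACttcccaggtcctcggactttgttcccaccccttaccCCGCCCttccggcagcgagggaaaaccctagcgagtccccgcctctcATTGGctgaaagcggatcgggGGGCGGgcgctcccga
Idi1 promoter: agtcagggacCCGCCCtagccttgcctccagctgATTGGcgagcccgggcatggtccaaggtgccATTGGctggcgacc
Lss promoter: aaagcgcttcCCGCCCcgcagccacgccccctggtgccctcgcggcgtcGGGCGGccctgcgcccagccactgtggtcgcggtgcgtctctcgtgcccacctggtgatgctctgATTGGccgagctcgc
Cyp51 promoter: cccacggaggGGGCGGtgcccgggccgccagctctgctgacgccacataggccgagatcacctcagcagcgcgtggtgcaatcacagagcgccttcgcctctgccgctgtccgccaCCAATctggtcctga
Nsdhl promoter: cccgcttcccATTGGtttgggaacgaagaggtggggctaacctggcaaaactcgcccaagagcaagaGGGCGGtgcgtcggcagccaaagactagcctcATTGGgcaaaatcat
Dhcr7 promoter: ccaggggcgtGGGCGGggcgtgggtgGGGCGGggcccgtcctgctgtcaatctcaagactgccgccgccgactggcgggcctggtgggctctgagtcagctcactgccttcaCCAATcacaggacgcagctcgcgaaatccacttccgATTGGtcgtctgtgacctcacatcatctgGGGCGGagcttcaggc

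The Hmgcs1 stretch is chr13:119690104-119690342 on the plus strand, Idi1 is chr13:8885527-8885605 (plus), Lss is chr10:76531429-76531557 (plus), Cyp51 is chr5:4104712-4104842 (minus), Nsdhl is chrX:72918402-72918515 (plus) and Dhcr7 is chr7:143830017-143830209 (plus), the last of its 3 windows. The SREBP motif was found in 1 of the 8 windows, that of Hmgcs1, at -137 to -129, and in 1.24% of all 32851 windows. The NF-Y motif was found in 6 of the 8 windows, in all 6 genes, and in 37.4% of all windows. The Sp1 motif was found in 7 of the 8 windows, again in all 6 genes, and in 35.7% of all windows. The PPAR element was in none of the 8 windows and in 0.0396% of all windows. Only exact matches to the given letters were counted, so a site with other letters is not marked, and a window without a match may still hold one. These matches describe the letters of short windows and say nothing of binding.

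The 9 members are described in the order of the pathway, each by its brightest probe set. Levels are intensities on the linear scale, and they are compared between arrays and never between genes, since different probes bind with different strength. Hmgcs1, the cytosolic HMG-CoA synthase that feeds the mevalonate pathway, had an intensity of 3456 on control chow and 4752 on Wy14643 in wild-type mice, and of 3957 and 2576 on these diets in PPARα-null mice. It was the only one of the 9 with its highest value in wild-type mice on Wy14643, and its lowest value came from the PPARα-null pool given Wy14643. Idi1, which interconverts the isoprenoid building blocks, had an intensity of 2416, 1209, 2786 and 2065 on the same arrays in that order. Its lowest value was in wild-type mice on Wy14643, 2.30-fold below the PPARα-null control.

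Fdps, the farnesyl diphosphate synthase, had an intensity of 1541, 985, 1705 and 605 in the same order, and the PPARα-null Wy14643 array stood lowest. Fdft1, the squalene synthase that commits farnesyl diphosphate to sterols, had an intensity of 1267, 847, 1460 and 1122, with both Wy14643 arrays below both controls. Sqle, the squalene epoxidase and a rate-limiting step, had an intensity of 399 on control chow and 146 on Wy14643 in wild-type mice, and of 457 and 316 in PPARα-null mice. Its range over the 4 arrays, 3.14-fold from the PPARα-null control to wild-type Wy14643, was the widest among the 9 members. Lss, which closes the epoxide to lanosterol, had an intensity of 243, 234, 260 and 128, so that the PPARα-null Wy14643 array alone was low.

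Cyp51, the lanosterol demethylase, had an intensity of 855, 459, 850 and 506 in the same order, with both Wy14643 arrays low and both controls alike. Nsdhl, a sterol dehydrogenase that takes part in removing the methyl groups next to the sterol hydroxyl, had an intensity of 808, 385, 597 and 489. Dhcr7, the reductase of the final step, had an intensity of 566, 412, 566 and 418, and its values differed least, by 1.37-fold in all. Of the 9 members, 8 had both Wy14643 values below both control values, the exception being Hmgcs1, and 18.5% of the 6233 genes above background on all 4 arrays showed the same order.

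**Figure D1:**
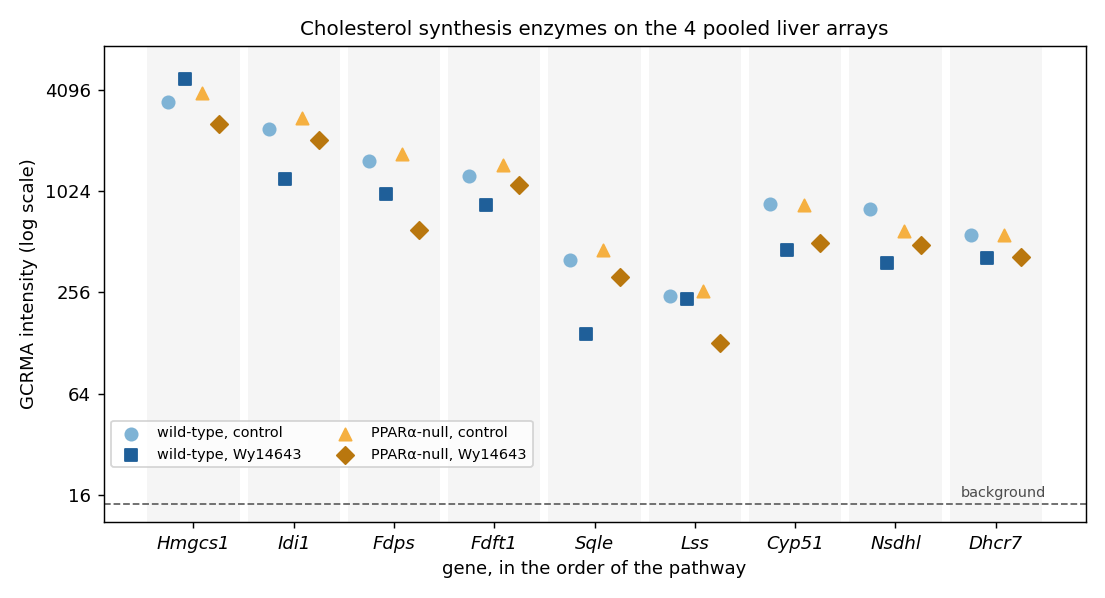
Intensity of the 9 cholesterol synthesis genes on each of the 4 arrays (log axis, 1 point per array of pooled RNA, no error bars since there are no replicates; the dashed line marks background at 14.1). Hmgcs1 has its highest point in wild-type mice on Wy14643, at 4752, while the other members have both Wy14643 points below both control points.

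The comparison of Wy14643 with the control diet in wild-type mice asks how 5 days of PPARα agonist change these genes where the receptor is present. Most members were lower on Wy14643. Sqle was 2.74-fold lower (log2 ratio -1.46), Nsdhl 2.10-fold lower (-1.07), Idi1 2.00-fold lower (-0.998), Cyp51 1.86-fold lower (-0.90) and Fdps 1.56-fold lower (-0.65). In all, 5 of the 9 members were lower by the threshold and 0 higher, where 16.6% of all 7251 measured genes were lower and 15.5% higher. The 0 rests on the brightest Hmgcs1 probe set, and with the other choices of probe set tried, 1 member, Hmgcs1, was higher. The median log2 ratio of the members was -0.65, against 0.01 over all genes with a standard deviation of 0.89.

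The other 4 members lay between the thresholds. Fdft1 was just inside, with a log2 ratio of -0.58 where the threshold is at 0.585 in size. Dhcr7 had a log2 ratio of -0.46 and Lss of -0.06. Hmgcs1 had a log2 ratio of 0.46, the only value above 0 among the 9. By pathway section, 2 of the 4 members up to squalene, 1 of the 2 from squalene to lanosterol and 2 of the 3 after lanosterol were lower.

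The comparison of the same diets in PPARα-null mice asks what Wy14643 does without the receptor. All 9 members had log2 ratios below 0, from -1.496 for Fdps to -0.29 for Nsdhl, and their median was -0.53. Fdps was 2.82-fold lower, Lss 2.03-fold lower, Cyp51 1.68-fold lower and Hmgcs1 1.54-fold lower. These 4 of 9 were lower by the threshold and 0 were higher, where 4.58% of all 7147 measured genes were lower and 2.34% higher. With each of the other choices of probe set tried, 2 of 9 were lower, since Lss was then at -0.04 and Hmgcs1 between -0.55 and -0.39. Over all genes the median was -0.00 and the standard deviation 0.33. Sqle, with a log2 ratio of -0.53, and Dhcr7, with -0.44, lay between the thresholds, as did Idi1 (-0.43), Fdft1 (-0.38) and Nsdhl (-0.29). Both diet comparisons are made within a genotype and share no array.

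**Figure D2:**
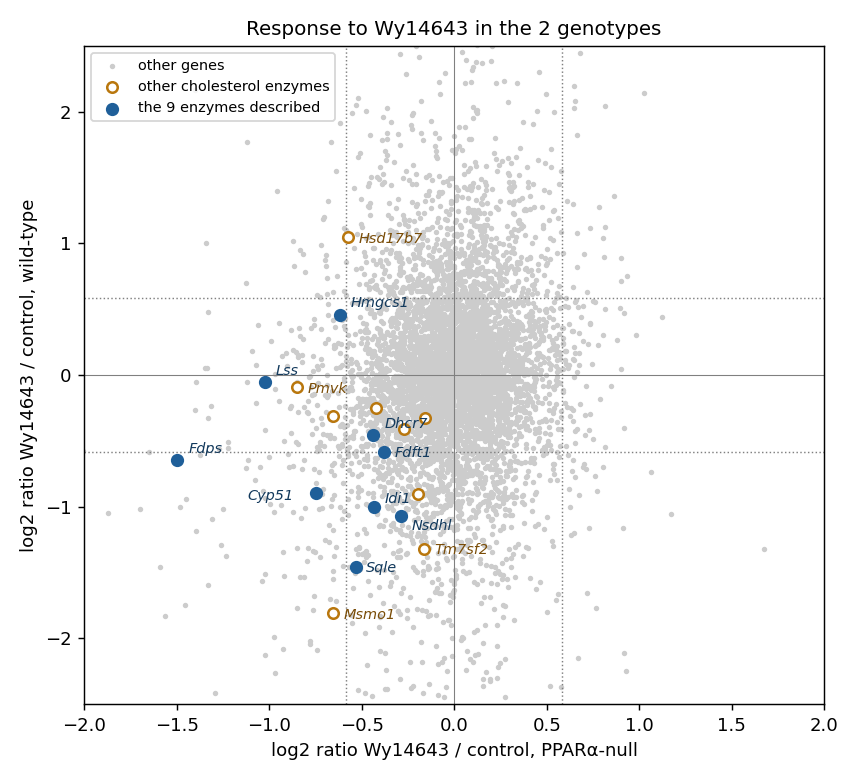
Log2 ratio of Wy14643 over control in PPARα-null mice (horizontal) against that in wild-type mice (vertical), with the 9 members in blue, the other cholesterol enzymes as open circles and other genes above background on all 4 arrays in grey (140 of 6233 genes lie outside the axes; dotted lines mark 1.5-fold). The members lie left of zero on the horizontal axis, between -1.496 and -0.29, and Hmgcs1 alone among them lies above zero on the vertical one.

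On the control diet, the genotypes differed little in these genes. None of the 9 members reached 1.5-fold, so 0 were higher and 0 lower with the receptor than without it, where 2.51% of all 7042 measured genes were higher and 2.58% lower. Log2 ratios of wild-type over PPARα-null ran from -0.21 for Idi1 to 0.44 for Nsdhl, with a median of -0.15 beside -0.03 over all genes. The first 6 members of the pathway, Hmgcs1 to Lss, had values between -0.21 and -0.10, Cyp51 was at 0.01 and Dhcr7 at 0.00.

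On Wy14643, the members fell on both sides. In wild-type relative to PPARα-null mice, Hmgcs1 was 1.85-fold higher (log2 ratio 0.88), Fdps 1.63-fold higher (0.70) and Lss 1.83-fold higher (0.87) by its brightest probe set, with -0.66 by its other one. Sqle was 2.17-fold lower (-1.12) and Idi1 1.71-fold lower (-0.77). Thus 3 of the 9 members were higher and 2 lower, where 17.2% of all 7327 measured genes were higher and 18.4% lower, and the standard deviation over all genes was 0.997. With other choices of probe set, the counts were 2 or 3 higher and 3 lower. The members' median was -0.14 and that of all genes -0.02. Fdft1 (-0.41), Nsdhl (-0.35), Cyp51 (-0.14) and Dhcr7 (-0.02) lay between the thresholds. This comparison uses the same Wy14643 arrays as the diet comparisons, so it is no separate evidence.

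**Figure D3:**
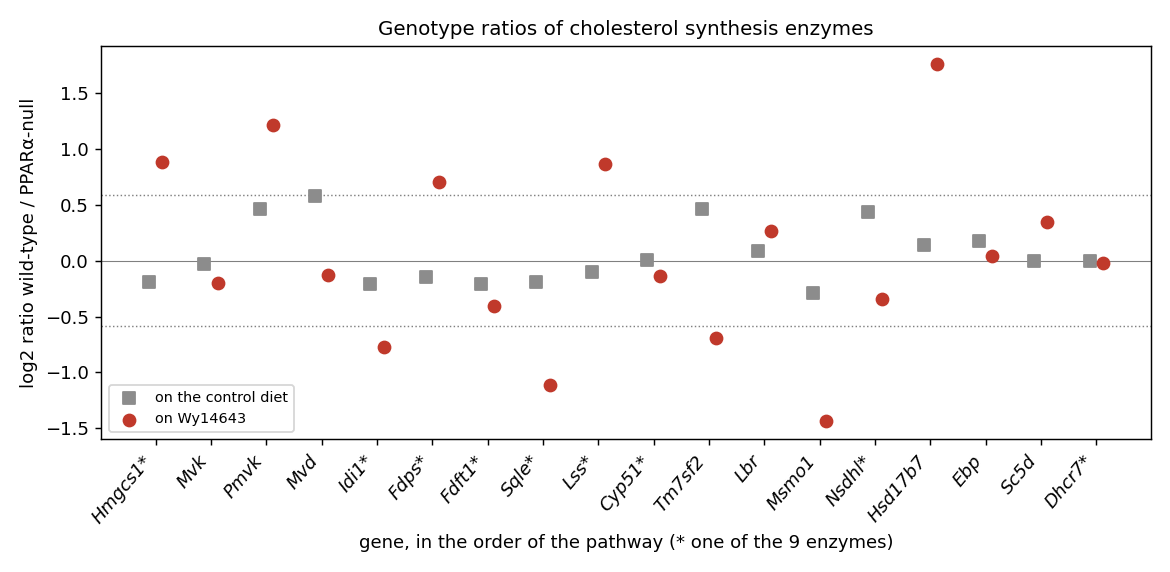
Log2 ratio of wild-type over PPARα-null for the 9 members and the other cholesterol enzymes on each diet (1 point per gene and diet, no replicates; dotted lines mark 1.5-fold). On the control diet no member passes a dotted line, and on Wy14643 Hmgcs1, Fdps and, by its brightest probe set, Lss lie above (Lss is at -0.66 by its other one) and Sqle and Idi1 below.

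The difference between the responses, that is the log2 ratio of Wy14643 over control in wild-type mice minus that in PPARα-null mice, uses all 4 arrays. By the brightest probe sets, Hmgcs1 had the highest difference of the 9 members, 1.08, which is made of a value above 0 in wild-type and one below 0 in PPARα-null mice. Lss followed with 0.97 and Fdps with 0.85, both with log2 ratios below 0 in each genotype and further below in PPARα-null mice. For Lss the other probe set gave the opposite sign, -0.82. Sqle had a difference of -0.92 and Nsdhl of -0.78, both further below 0 in wild-type mice. These 3 higher and 2 lower of 9 stand beside 17.0% and 16.6% of all 7486 measured genes. Idi1 was just inside the threshold with -0.57, and Fdft1 (-0.20), Cyp51 (-0.15) and Dhcr7 (-0.02) were further inside. For Cyp51 the other probe set gave 1.54, which is above the value of the brightest Hmgcs1 probe set but below the highest of the Hmgcs1 probe sets, 1.58. Whether any of these differences exceeds the spread between pools was not tested, since each group has 1 array.

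Several members have further probe sets, which bind other parts of the same transcripts. Of the 9 members, 5 have more than 1 probe set above background on all 4 arrays, and Fdps, Sqle, Nsdhl and Dhcr7 have 1. All 4 probe sets of Hmgcs1 gave log2 ratios above 0 in wild-type mice, from 0.46 to 1.07, and below 0 in PPARα-null mice, from -0.62 to -0.39. The brightest, 1433445_x_at, gave the smallest of the wild-type ratios, and the other 3 (1433443_a_at, 1433444_at and 1433446_at) passed 1.5-fold with 0.86, 0.75 and 1.07. The difference between the responses was 1.08 to 1.58 over the 4 probe sets. The name of 1433445_x_at marks probes that may bind other transcripts too.

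The pair of Idi1 probe sets gave -0.998 and -0.90 in wild-type mice, and the pair of Fdft1 probe sets gave -0.58 and -0.65, so that Fdft1 passed the threshold by the dimmer one. Lss and Cyp51 differed between their probe sets. For Lss, the dimmer 1426913_at had an intensity of 34.1, 18.9, 30.6 and 29.8, with a log2 ratio of -0.85 in wild-type and -0.04 in PPARα-null mice, where the brightest, 1420013_s_at, gave -0.06 and -1.02. The order of the genotypes for Lss is therefore opposite between its probe sets, with log2 ratios between the genotypes on Wy14643 of 0.87 and -0.66. Each has a limit, since 1426913_at lies close to background and the name of 1420013_s_at marks probes that may bind several transcripts. For Cyp51, the dimmer 1422533_at had an intensity of 158, 148, 212 and 68.4, with -0.09 in wild-type and -1.63 in PPARα-null mice, where 1450646_at gave -0.90 and -0.75. Over the 16 probe sets above background, 12 had log2 ratios below 0 in wild-type and 16 in PPARα-null mice, and probe sets of 1 gene are not independent.

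**Figure D4:**
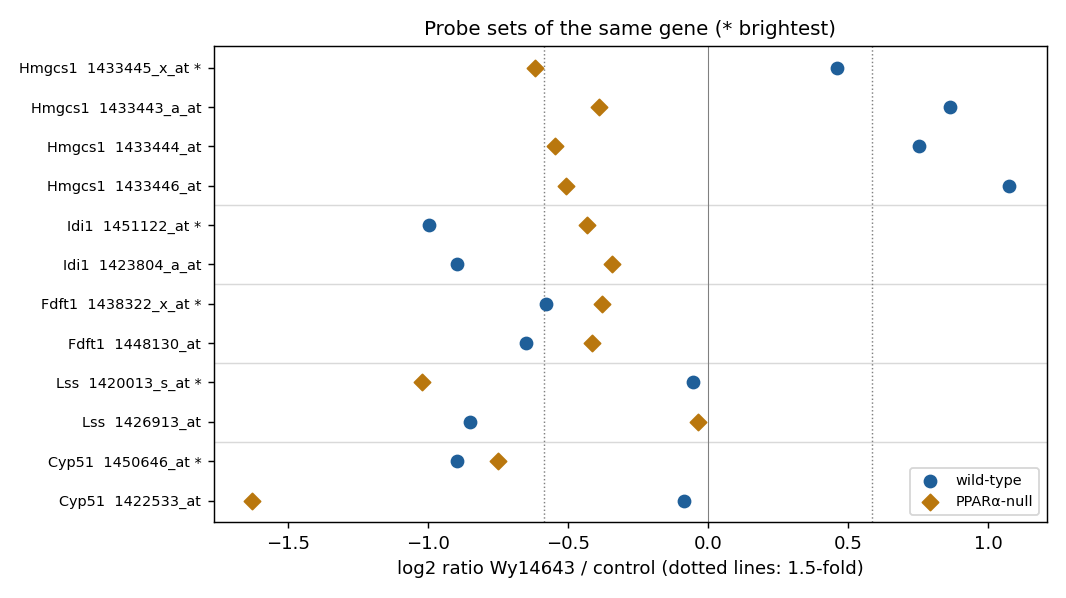
Log2 ratio of Wy14643 over control in each genotype for the probe sets above background on all 4 arrays of the 5 members that have several (1 point per probe set and genotype, asterisks at the brightest, dotted lines at 1.5-fold). The 4 Hmgcs1 probe sets keep opposite signs in the genotypes, from 0.46 to 1.07 and from -0.62 to -0.39, while the probe sets of Lss and of Cyp51 lie apart from each other.

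Further enzymes of the pathway were measured for 9 of 12 listed genes. In wild-type mice, Msmo1, a sterol methyl oxidase that acts beside Nsdhl, was lower by the threshold with a log2 ratio of -1.81, and its intensity was 3093 in wild-type controls and 883 on Wy14643, against 3778 and 2398 in PPARα-null mice. Tm7sf2, a sterol reductase, was at -1.32, with 1968 and 788 against 1429 and 1276. Mvd, the mevalonate diphosphate decarboxylase, was at -0.90, with 28.2 and 15.1 against 18.8 and 16.4, close to background. The exception in the other direction was Hsd17b7, a ketosteroid reductase of the same demethylation steps, at 1.05, with 23.6 and 48.7 in wild-type and 21.3 and 14.3 in PPARα-null mice. These are 3 lower and 1 higher of 9, with a median of -0.33, beside 16.6% and 15.5% of all genes.

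In PPARα-null mice, all 9 further enzymes had log2 ratios below 0 and 3 were lower by the threshold, with a median of -0.42, beside 4.58% of all genes. They were Pmvk, the phosphomevalonate kinase (-0.85, with an intensity of 209 and 116), Msmo1 (-0.66) and Sc5d, a sterol desaturase (-0.65, with 2861 and 1818). In wild-type mice Pmvk had a log2 ratio of -0.09, with 288 and 270, and Sc5d of -0.31, with 2864 and 2313. Mvk, the mevalonate kinase, had -0.33 in wild-type and -0.16 in PPARα-null mice, Lbr, the lamin B receptor with sterol reductase activity, -0.25 and -0.42, and Ebp, a sterol isomerase, -0.41 and -0.27. With the members, 8 of 18 enzymes were lower and 1 higher in wild-type mice, beside 16.6% and 15.5% of all genes. In PPARα-null mice 7 of 18 were lower and 0 higher, beside 4.58% and 2.34%, and 18 of 18 had values below 0. On the control diet, 0 of the 18 passed 1.5-fold between the genotypes, where 2.51% of all genes were higher and 2.58% lower. On Wy14643, 5 of the 18 were higher in wild-type mice and 4 lower, beside 17.2% and 18.4% of all genes, the further ones being Hsd17b7 (1.76) and Pmvk (1.22) above and Msmo1 (-1.44) and Tm7sf2 (-0.69) below.

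Genes that regulate, take up or export sterols were measured for 13 of 18 listed. In wild-type mice 2 were lower and 1 higher on Wy14643, shares no larger than the 16.6% and 15.5% of all genes, with a median of -0.31. Stard4, a sterol transfer protein that is itself an SREBP target, had an intensity of 1025 in wild-type controls and 218 on Wy14643 (log2 ratio -2.24), against 865 and 671 in PPARα-null mice (-0.37). Mylip, a ubiquitin ligase acting on lipoprotein receptors, was at -0.81, with an intensity of 32.1 and 18.3, close to background. Abca1, a cholesterol efflux transporter, was at 0.80. In PPARα-null mice 0 of the 13 passed 1.5-fold, with a median of 0.09, where 2.34% of all genes were higher and 4.58% lower. Between the genotypes on the control diet, 1 of the 13 was higher in wild-type mice, the sterol transporter gene Abcg5 (0.88), and 0 were lower. Over all genes these shares were 2.51% and 2.58%. On Wy14643, 3 of the 13 were higher, namely Srebf1 (0.92), Abcg8, the partner of Abcg5 (0.88), and Abca1 (0.84). Another 2 were lower, Stard4 (-1.62) and Npc1, which moves cholesterol out of lysosomes (-0.68). These counts are near the 17.2% higher and 18.4% lower of all genes. Transcripts of the SREBP genes were measured directly. Srebf2 had an intensity of 22.6, 18.2, 22.4 and 26.9 in the order of the members, close to background, where ratios are least reliable. Srebf1 had one of 695, 909, 466 and 482. In either genotype neither passed the threshold between diets.

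**Figure D5:**
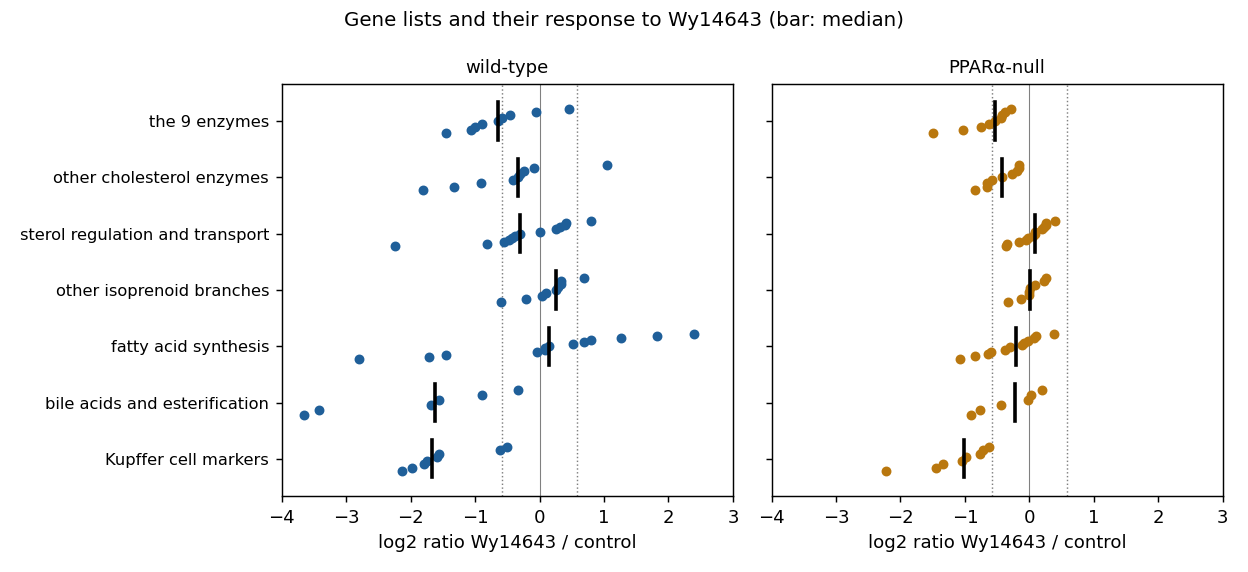
Log2 ratio of Wy14643 over control for each gene of the listed groups in wild-type and in PPARα-null mice (1 point per gene above background, bars at the group median). The 9 members have medians of -0.65 and -0.53, and the sterol regulation and transport genes have medians of -0.31 and 0.09.

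The diet comparisons also differed in markers of other liver cells, and in pooled tissue fewer cells of a type and less RNA per cell cannot be told apart. Of 10 measured markers of Kupffer cells, the resident macrophages, 8 were above background on each array, and Marco and Cd68 on none. Their summed intensity was 1096 in wild-type controls and 433 on Wy14643, and 1307 and 667 in PPARα-null mice. With Wy14643, 7 of the 8 were lower by 1.5-fold in wild-type and 8 of 8 in PPARα-null mice, beside 16.6% and 4.58% of all genes. Of 8 endothelial markers, 5 to 7 were above background, and their summed intensity was 1409 and 754 in wild-type and 1518 and 692 in PPARα-null mice. The sum rests mainly on Fcgr2b, at 828 and 365 in wild-type mice, and Clec4g, at 315 and 152. In wild-type mice 2 of 7 were lower by 1.5-fold and 0 higher, beside 16.6% and 15.5% of all genes, and Lyve1 (log2 ratio 0.22) and Tek (0.19) lay above 0. In PPARα-null mice 5 of 7 were lower and 0 higher, beside 4.58% and 2.34% of all genes. Of 9 stellate cell markers, 5 or 6 were above background, with sums of 2243 and 1141 in wild-type and 2634 and 2827 in PPARα-null mice. In wild-type mice 4 of 5 were lower and 0 higher, beside 16.6% and 15.5% of all genes. In PPARα-null mice the sum mixes both directions. There 3 of 6 were higher, namely Pdgfrb (log2 ratio 0.91), Reln (0.80) and Col3a1 (0.79), and 1 was lower, Rgs5 (-0.60), beside 2.34% and 4.58% of all genes. Cholangiocyte markers had sums between 53.0 and 65.9 and lymphocyte markers between 76.8 and 93.3, and at most 2 of either list were above background. Neutrophil markers summed to 57.4, 58.5, 64.4 and 250.4, with 0 to 3 of 5 above background. The part of these cells in the values of the cholesterol enzymes was not tested.

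The median of the members' centred log2 values was 0.25 on control chow and -0.44 on Wy14643 in wild-type mice, and 0.34 and -0.21 in PPARα-null mice. Among 6224 other genes above background on all 4 arrays, the 5 with the smallest Euclidean distance to this pattern over the 4 arrays were Habp4 (0.051), Dpagt1 (0.060), Rad21 (0.080), Setd4 (0.088) and Ankrd28 (0.100). With 4 points, such likeness is a description only.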

How the data were processed

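Liver RNA of 4 groups of mice, pooled within groups, was measured on 1 Affymetrix MOE430A array each. The deposited intensity values were computed by the authors with GCRMA, listed as version 2.20 in the submitters' processing notes. GCRMA corrects background, quantile-normalizes and summarises probes. The sources used here do not give the set of arrays normalized together. The values run from 1.55 to 31270.2, so they were taken as linear and converted to log2. The 64 Affymetrix control probe sets among 22690 were dropped. Through the platform annotation, with 20 symbols updated, 20380 carry 1 gene symbol, 691 several and 1555 none, and 12384 genes were named. The brightest probe set, with the highest mean log2, stands for a gene. A gene entered a comparison if it was above background on at least 1 array compared, and the difference between responses if on at least 1 of 4. Counts use 1.5-fold, the threshold of the study for pooled arrays. Members, lists and motifs were chosen with earlier results of these data known. Named genes are the members, the further enzymes, up to 4 genes of a list past 1.5-fold in a comparison and 5 genes of similar pattern, and Srebf1, Srebf2 and the markers are given besides. A planned protein comparison was not run. The calculation was tested on simulated data. Alternatives were 32 added, a floor at background, median centring, cyclic loess, other probe sets, no probe sets of the kinds _s_at, _x_at and _a_at, and a 2-fold threshold. Python 3.11.15, numpy 2.4.6, pandas 2.3.3, matplotlib 3.10.9, R 4.3.3 and limma 3.58.1 were used.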

Additional observations from a re-analysis of the deposited data

Results flagged for a closer look

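Hmgcs1 and Hsd17b7 are listed because their log2 ratios of Wy14643 over control lay on opposite sides of 0 in the genotypes, above it in wild-type and below it in PPARα-null mice. The log2 response in wild-type minus that in PPARα-null mice was 1.08 for Hmgcs1, whose wild-type ratio of 0.46 is under 1.5-fold by its brightest probe set, and 1.62 for Hsd17b7, whose intensity of 14.3 in PPARα-null mice on Wy14643 is next to background. With 1 array per group, neither difference was tested.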

How the results depend on the processing

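No paired analysis was possible because each group has 1 array. Adding 32, a floor at background, median centring and cyclic loess moved none of the 45 ratios of members by more than 0.33 (log2), and scaling moved the median of all genes by under 0.1. Cyclic loess gave 6 lower members in wild-type mice, with Fdft1 added, and median centring 3 in PPARα-null mice. The choice of probe set mattered more. With the median of all probe sets, which takes in 5 that are below background on every array (Fdps in PPARα-null mice goes from -1.496 to -0.69 through such a pair) and equals the second brightest one for Lss and Cyp51, the members' median in wild-type mice was -0.46, 1 member was higher, 2 were lower in PPARα-null mice and the median between genotypes on the control diet was -0.044. With the second brightest probe set, 1 member was higher in wild-type mice, 2 were lower in PPARα-null mice, whose median was -0.41, and the median between genotypes on Wy14643 was -0.32. Without probe sets that may bind several transcripts, the wild-type median was -0.85 with 1 member higher, 2 were lower in PPARα-null mice, and the median between genotypes on Wy14643 was again -0.32. Under these 3 settings Lss reversed, to -0.66 between genotypes on Wy14643 and -0.82 for the difference between responses. Under the first 2 of them Cyp51 changed sign as well, to 1.12 and 1.54. At 2-fold, 2 members were lower in wild-type and 2 in PPARα-null mice. Between genotypes on Wy14643, 0 were higher and 1 lower, and for the difference between responses 1 was higher and 0 lower. The share of all genes was computed at 1.5-fold only, so these 2-fold counts have none to stand beside. The causes were not tested. Mvd, Hsd17b7, Srebf2, Mylip, Ggps1, Dpagt1 and Setd4 lie close to background, where ratios are least reliable.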

Other observations

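Genes that use cholesterol or share its precursors were listed too. Over all genes, 15.5% were higher and 16.6% lower with Wy14643 in wild-type mice, and 2.34% and 4.58% in PPARα-null mice. Of 6 measured genes of cholesterol esterification and bile acid synthesis, 5 were lower and 0 higher with Wy14643 in wild-type mice, with a median log2 ratio of -1.62. The 5 are all genes of bile acid synthesis, and the esterification gene measured, Lcat, was at -0.33 and did not pass. Cyp7a1, the rate-limiting enzyme of bile acid synthesis, had an intensity of 1368 in wild-type controls and 109 on Wy14643 (log2 ratio -3.65), against 1545 and 1769 in PPARα-null mice. Cyp39a1, an oxysterol hydroxylase, was lower by at least 9.55-fold with Wy14643 in wild-type mice, since its value on Wy14643 was below background. Cyp7b1, another oxysterol hydroxylase, had a log2 ratio of -1.68 and Cyp27a1, the sterol hydroxylase of mitochondria, of -1.56. In PPARα-null mice, 2 of the 6 were lower, Cyp39a1 (-0.90) and Cyp7b1 (-0.76).

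Fatty acid synthesis genes, partly under SREBP control, had 5 of 13 higher and 3 lower in wild-type mice. Acacb, an acetyl-CoA carboxylase, had a log2 ratio of 2.39 and Me1, the malic enzyme, of 1.83, while Thrsp had -2.81 and the elongase gene Elovl6 -1.72. In PPARα-null mice 4 of 12 were lower, namely Acss2 (-1.07), Fasn (-0.85), Elovl6 (-0.64) and Acly (-0.60), and 0 were higher. Of the genes of nonsterol isoprenoid branches, 1 of 9 was higher in wild-type mice (Rabggtb, 0.69) and 1 lower (Ggps1, -0.60, close to background). In PPARα-null mice 0 of 8 passed. Of 7 measured PPARα target genes, 6 were higher in wild-type and 3 in PPARα-null mice, and 0 lower in either.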
